A study of Mus musculus with 2 samples.

Results

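Hypertrophic chondrocytes were taken from 2 single-cell RNA-sequencing libraries of fetal mouse bone marrow as the cells that held RNA of both collagen X and collagen II. A cell was counted when at least 20 of every 10000 of its unique molecular identifiers (UMIs, each tagging 1 captured RNA molecule) were Col10a1, at least 20 of every 10000 were Col2a1, and it had no UMI of the endothelial gene Cdh5 or the leukocyte gene Ptprc. This gate held 428 of 12356 cells: 212 of 5736 in the wild-type library and 216 of 6620 in the Bmx-CreER Wls library. Both libraries came from C57BL/6 embryos at day E18.5, from crushed and collagenase-digested bone marrow after magnetic removal of lineage-committed blood cells, and both were made with the BD Rhapsody whole-transcriptome kit, which captures single cells in microwells. The wild-type embryos carried no allele named in the labels. In the Bmx-CreER Wls embryos, a tamoxifen-inducible Cre under the Bmx promoter, active in arterial endothelial cells, deletes floxed Wls, the carrier protein that Wnt ligands need for secretion. The deletion is therefore not aimed at chondrocytes, and how many embryos were pooled, and whether the wild-type dams received tamoxifen, are not given in the sources used here. There was 1 library per genotype, so library and genotype cannot be told apart, no test between genotypes was possible, and every interval below covers counting error only.

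Growth plate cartilage elongates bones by an ordered programme: round reserve chondrocytes become flat, dividing columnar cells, which leave the cell cycle, enlarge into hypertrophic chondrocytes and replace a collagen II matrix with one rich in collagen X. Hypertrophic cells send the ligand Indian hedgehog back to the dividing cells, where parathyroid hormone-related protein, acting on its receptor Pth1r, delays hypertrophy. They then mineralize their matrix, attract vessels and osteoclasts, and either die or enter the osteoblast lineage, so that marrow and bone take their place.

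The 2 libraries held 5998 and 6825 barcodes with 22708005 and 24704991 UMIs, and the kept cells had median depths of 3128 and 3067 UMIs in wild type and Bmx-CreER Wls. The 2 barcode lists shared 49 sequences, none of which was a hypertrophic chondrocyte in both. Doublets were kept, and Scrublet's automatic threshold marked 38 wild-type cells (0.662%) and 0 Bmx-CreER Wls cells, so it did not separate doublets in the latter. Wls itself was read in hypertrophic chondrocytes at 140.5 UMIs per 1000000 UMIs of these cells (CPM) in wild type and 122 in Bmx-CreER Wls, and in the other Col2a1-containing cells at 110.5 and 109.8. Reads from the 3′ end need not cover the deleted exon, and Bmx had 0 UMIs in hypertrophic chondrocytes of either library, so these values do not check the deletion.

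Hypertrophic chondrocytes made up 3.70% of the kept cells in wild type (exact Clopper-Pearson 95% interval 3.22% to 4.22%) and 3.26% in Bmx-CreER Wls (2.85% to 3.72%). Those intervals overlap. Among all cells that passed the Col2a1, Cdh5 and Ptprc criteria they were 8.07% (7.05% to 9.17%) of 2628 in wild type and 4.96% (4.33% to 5.65%) of 4355 in Bmx-CreER Wls, the other Col2a1 cells numbering 2416 and 4139. The gated cells were nearly equal in number (212 and 216), and the second share was lower where the other cells were more numerous. The source of the number of other cells was not tested. The gated cells were deep, with a median of 6594 UMIs (671 to 18932) in wild type and 6911 (851 to 17026) in Bmx-CreER Wls, against 2670 and 2776 in the other Col2a1 cells. Their median mitochondrial shares were 4.79% and 4.30%.

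**Figure D1:**
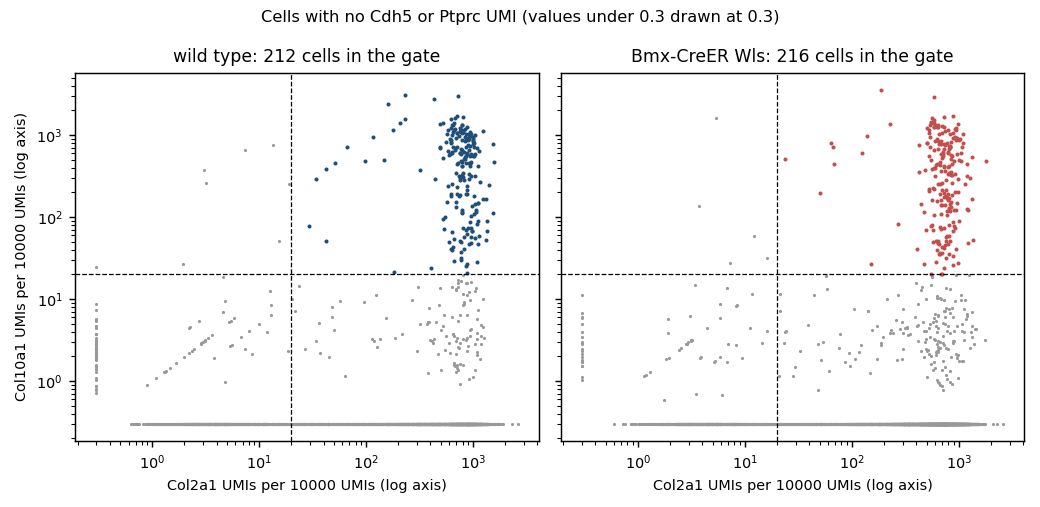
Each point is a kept cell without Cdh5 or Ptprc UMIs and with a UMI of Col10a1 or Col2a1, plotted by its Col2a1 and Col10a1 UMIs per 10000 UMIs on log axes, with the 2 thresholds of 20 dashed and the gated cells coloured. The 212 and 216 gated cells stand mostly at high Col2a1, with a sparse trail towards lower Col2a1 and few cells around the Col10a1 threshold.

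The genes of the gate are given as a description, since they chose the cells. Col10a1 took from 20.9 to 3055 UMIs per 10000 in single wild-type cells, with a median of 477, and from 20.1 to 3561 with a median of 352 in Bmx-CreER Wls. The threshold cut through a thin region: 8 and 9 hypertrophic chondrocytes lay between 20 and 30 Col10a1 UMIs per 10000, 21 and 20 other Col2a1 cells lay between 10 and 20, and 2301 of 2416 and 3956 of 4139 other Col2a1 cells had no Col10a1 UMI. The absence of Cdh5 and Ptprc removed 1 cell in each library. Col2a1 had medians of 794 and 727 UMIs per 10000, so the selected cells still carried abundant collagen II RNA.

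The 4 markers outside the gate all stood above the other Col2a1 cells in both libraries. They were chosen with earlier results of these data known, so their levels describe the cells and do not test the label. Ihh, the hedgehog ligand of the growth plate (chr1:74945315-74951672, minus strand, GRCm38), was at 965 CPM (exact Poisson 95% interval 915 to 1018) in wild-type and 972 (923 to 1023) in Bmx-CreER Wls hypertrophic chondrocytes. In single cells it ranged from 0 to 37.0 UMIs per 10000 with a median of 8.15 in wild type, and from 0 to 32.3 with a median of 8.11 in Bmx-CreER Wls. The other Col2a1 cells held 78.2 and 56.8 CPM, 12.3-fold (11.2 to 13.6) and 17.1-fold (15.7 to 18.7) less. Thus the ligand was found in most of the gated cells: 87.7% and 88.4% had an Ihh UMI, against 0.295% and 0% of Ptprc-positive cells with median depths of 7105 and 7159 UMIs. The 0 in Ptprc-positive cells of Bmx-CreER Wls allows up to 1.62 CPM. After each cell was thinned to 1000 UMIs, which left out 4 wild-type and 3 Bmx-CreER Wls hypertrophic chondrocytes, the shares were 50% and 52.1%, against 0.296% and 0% of Ptprc-positive cells.

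Panx3 (chr9:37659902-37669235, minus strand), a channel protein of the pannexin family, was at 2702 and 2949 CPM in wild-type and Bmx-CreER Wls hypertrophic chondrocytes, against 464 and 275 in the other Col2a1 cells. Smpd3 (chr8:106252548-106337988, minus strand), a sphingomyelinase needed for cartilage and bone mineralization, stood at 1162 and 1062 against 235 and 136 CPM. Pth1r (chr9:110722085-110747145, minus strand), the receptor of the hormone that holds hypertrophy back, was at 1657 and 1526 against 141 and 84.9 CPM. The 3 genes were thus between 4.94-fold and 18-fold higher in the hypertrophic cells. A Panx3 UMI was found in 94.8% and 96.8% of hypertrophic chondrocytes, and the single cells had medians of 25.6 and 28.9 and maxima of 82.3 and 75.3 Panx3 UMIs per 10000. Pth1r was found in 92.9% and 96.8% and Smpd3 in 88.7% and 88.0%, while these 3 genes had a UMI in between 0.797% and 2.39% of Ptprc-positive cells. With each cell weighted equally in place of each UMI, the ratios to the other Col2a1 cells were larger, 25.8 and 35.4 for Ihh, 11.9 and 23.1 for Panx3, 9.62 and 15.2 for Smpd3, and 18.8 and 28.2 for Pth1r. All 3 also stood high in osteoblasts of the same libraries (127 and 60 cells with Col1a1 of at least 200 and Ibsp of at least 5 UMIs per 10000, and both gate collagens under 20), at 1277 and 1294 CPM for Panx3, 536 and 556 for Smpd3, and 494 and 499 for Pth1r. Ihh was not shared with osteoblasts, which held 0 and 1 Ihh UMIs.

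Across the transcriptome, 491 of 11562 genes with at least 50 UMIs were at least 2-fold higher in hypertrophic than in other Col2a1 cells in both libraries (4.25% of genes tested) and 1495 were at least 2-fold lower in both (12.9%). For these calls a gene with fewer than 3 UMIs in a set was given 3, and the median log2 ratio over all tested genes was -0.23 in wild type and -0.24 in Bmx-CreER Wls. Leaving Col10a1 and Col2a1 out of the totals gave 559 higher and 1313 lower genes. The 10 highest of 10221 genes with at least 100 UMIs, ranked by the library with the smaller ratio, were Col10a1, Cds1, R3hdml, F5, B3galt2, Bmp8a, Aldh1a3, Gcnt2, Vnn1 and Slco2b1. Col10a1 divided the 2 cell sets, so its place here and among the 491 was fixed by the gate. Cds1, which makes CDP-diacylglycerol for phospholipid synthesis, was at 158 and 142 CPM against 1.57 and 2.06. Bmp8a, a bone morphogenetic protein, was at 109 and 74.4 against 2.23 and 1.68 CPM, and Aldh1a3, a retinoic acid-making enzyme, at 176 and 135 against 3.54 and 4.2. The 10 lowest were Cenpf, Nusap1, Prc1, Kif23, 6330403K07Rik, Mki67, Fam19a5, Top2a, Hmmr and Birc5, of which 8 are genes of mitosis.

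**Figure D2:**
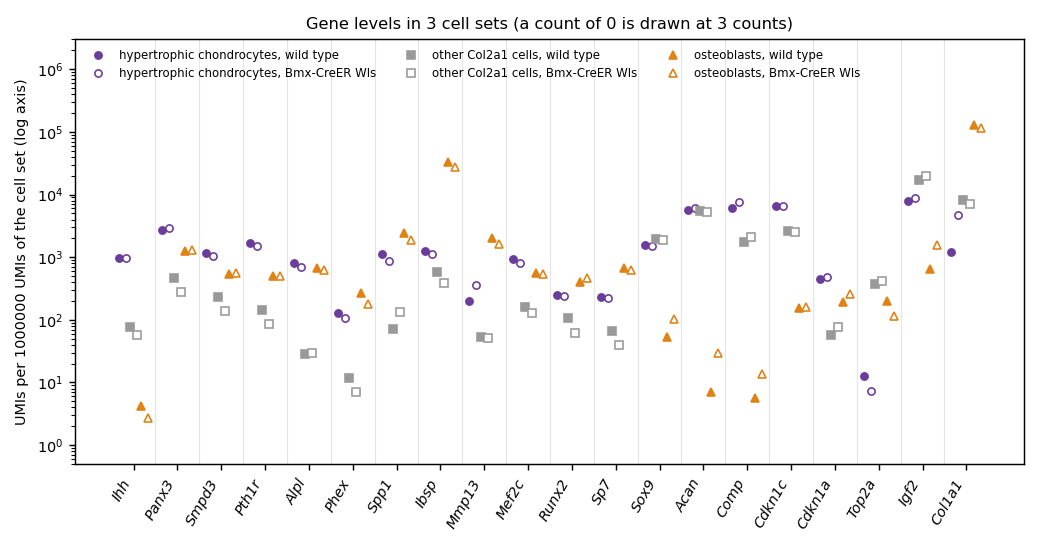
Levels of 20 genes on a log axis, as UMIs per 1000000 UMIs, in hypertrophic chondrocytes (circles), other Col2a1 cells (squares) and osteoblasts (triangles), with wild type filled and Bmx-CreER Wls open; each symbol is the sum over all cells of 1 set in 1 library, with a count of 0 drawn at 3 counts. Ihh, Comp and Cdkn1c stood highest in hypertrophic chondrocytes, Ibsp, Mmp13 and Col1a1 in osteoblasts, and Top2a and Igf2 in the other Col2a1 cells.

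Promoter sequence is shown for Col10a1, the collagen of the gate, for Ihh, the ligand carried by most of these cells, and for Mmp13, the collagenase described further on that few of them carried. The 250 bases before the annotated start (RefSeq, GRCm38.p6, 5′ to 3′ on the gene's strand) were searched on both strands for the RUNX core (TGTGGT), the AP-1 site (TGACTCA) and a TATA box (TATAAA), which do not overlap one another here, and matches are in capitals. The windows are chr10:34389731-34389980 (plus strand) for Col10a1, chr1:74951673-74951922 (minus strand) for Ihh and chr9:7272264-7272513 (plus strand) for Mmp13.
Col10a1: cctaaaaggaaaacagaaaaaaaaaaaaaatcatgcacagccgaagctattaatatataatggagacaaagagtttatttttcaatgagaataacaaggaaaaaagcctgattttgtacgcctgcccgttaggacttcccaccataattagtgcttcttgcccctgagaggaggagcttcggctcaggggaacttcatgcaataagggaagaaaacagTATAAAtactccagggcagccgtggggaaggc
Ihh: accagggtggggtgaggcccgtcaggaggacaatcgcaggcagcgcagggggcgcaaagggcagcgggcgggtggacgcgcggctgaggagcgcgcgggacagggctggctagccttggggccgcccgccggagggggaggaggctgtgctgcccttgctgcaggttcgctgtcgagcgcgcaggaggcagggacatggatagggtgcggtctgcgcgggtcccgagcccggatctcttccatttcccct
Mmp13: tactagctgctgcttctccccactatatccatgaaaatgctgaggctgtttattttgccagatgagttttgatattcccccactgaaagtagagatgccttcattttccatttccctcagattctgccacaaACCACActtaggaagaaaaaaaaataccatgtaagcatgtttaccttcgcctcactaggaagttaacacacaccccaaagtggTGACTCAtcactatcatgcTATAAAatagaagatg
Col10a1 had a TATA match starting 32 bases before the start. Mmp13 had all 3 motifs, the RUNX core at 118, the AP-1 site at 35 and the TATA box at 16 bases before the start, and Ihh, whose window was 72.0% G and C against 41.6% and 40.4% for the other two, had none. Of 32851 promoter windows of that length, 14.0% held the RUNX core, 4.46% the AP-1 site and 12.4% the TATA box. Some genes have several windows and others none. Among the 490 windows of 347 genes at least 2-fold higher in hypertrophic chondrocytes the shares were 10.8%, 3.47% and 10.2%, among the 1440 windows of 1090 lower genes 9.51%, 3.68% and 7.36%, and among the 10865 windows of 8452 tested genes 10.1%, 3.0% and 6.14%. No window is listed for Panx3 or Smpd3.

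Cell cycle genes were mostly lower, where 12.9% of all tested genes were lower and 4.25% higher. Of 21 tested members of the list, 18 were at least 2-fold lower and 2 at least 2-fold higher in both libraries, and the list's median log2 ratios were -4.29 and -4.51. Top2a, the DNA topoisomerase of dividing cells, had 18 and 11 UMIs in all hypertrophic chondrocytes together, which is 12.9 and 7.18 CPM, against 379 and 415 CPM in the other Col2a1 cells. Mki67, the gene of the Ki-67 antigen, had 9 and 1 UMIs, or 6.45 and 0.653 CPM, against 207 and 218. The 5 highest cells held 88.9% and 100% of the Top2a UMIs, so nearly all hypertrophic chondrocytes had none. The 2 genes that went the other way encode inhibitors of cyclin-dependent kinases. Cdkn1c (p57) was at 6668 and 6489 CPM, 2.57-fold above the other Col2a1 cells in wild type and 2.57-fold in Bmx-CreER Wls, and Cdkn1a (p21) at 454 and 484, 7.84-fold and 6.23-fold above. The related inhibitor Cdkn1b did not pass 2-fold (0.763 and 0.738).

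Among 46 tested growth plate signals, 12 were at least 2-fold higher and 16 at least 2-fold lower in both libraries, against 4.25% and 12.9% of all tested genes. Ligands, receptors and antagonists were on both sides. In the hedgehog pathway the ligand Ihh was high, while the genes that report hedgehog reception were low: Gli1 was at 2.87 and 2.61 CPM against 57.1 and 36.8, and Hhip had 2 and 0 UMIs. The hedgehog receptor Ptch1 was scarce in both cell sets, at 10.8 and 5.22 against 16.1 and 7.80 CPM. In the parathyroid hormone-related protein pathway the receptor Pth1r was high and the ligand Pthlh had 0 UMIs in both libraries, which allows up to 2.15 and 1.96 CPM, against 13 and 22.0 CPM in the other Col2a1 cells.

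Among bone morphogenetic proteins and their antagonists, Bmp2 (311 and 170.4 CPM), Bmp6 (38.7 and 15.7) and the antagonist Nog (129 and 102) were 2.13- to 9.23-fold higher than in the other Col2a1 cells, where they stood at 101 and 79.8, 4.19 and 2.29, and 28.3 and 18.4. Grem1, another antagonist, had only 4 and 2 UMIs. Of the Wnt ligands, Wnt5b was at 191 and 163 CPM against 35.1 and 12.2, and Wnt5a at 215 and 236 against 77.1 and 62.1. The secreted Wnt antagonists divided, with Frzb higher (3.29- and 2.41-fold) and Sfrp1 lower (17.9 and 14.4 against 162 and 183 CPM). The growth factor Igf2 was lower, at 7802 and 8887 against 17126 and 20091 CPM. Fgfr3, a receptor that restrains chondrocyte division, did not pass 2-fold (1.38 and 1.75), while Fgfr2 was lower (0.217 and 0.194).

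Of 26 tested transcription factors, 9 were at least 2-fold higher and 4 at least 2-fold lower in both libraries. Over all tested genes the shares were 4.25% and 12.9%, so the lower calls do not set this list apart. Mef2c, which drives chondrocyte hypertrophy, was at 927 and 822 CPM against 161 and 129.8, and was found in 89.6% and 93.1% of hypertrophic chondrocytes. Mef2c was also present in Ptprc-positive cells (38.1% and 38.2%), where myeloid and lymphoid cells use it. Its relative Mef2d was 4.49- and 4.12-fold higher, while Mef2a was not past 2-fold. Runx2 was at 252 and 244 CPM against 106 and 60.7, and Sp7 (osterix) at 229 and 226 against 67.2 and 40.4. Both act in hypertrophic chondrocytes and osteoblasts, and osteoblasts held more of each, 401 and 461 CPM of Runx2 and 663 and 624 of Sp7. Foxa2, a forkhead factor of hypertrophic differentiation, was at 71.0 and 71.8 against 8.13 and 8.25 CPM and had 0 UMIs in the osteoblasts of both libraries, which allows up to 4.21 and 8.14 CPM. Dlx3, Dlx5, Dlx6 and Foxa3 complete the 9. Sox9, the master regulator of cartilage, was not past 2-fold (0.804 and 0.814), but its partner Sox5 was lower (0.341 and 0.296).

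**Figure D3:**
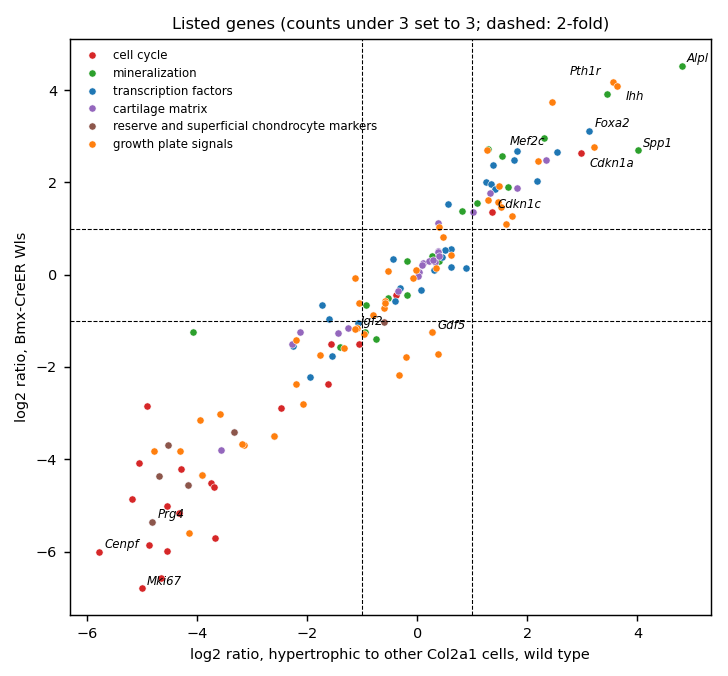
Log2 ratio of hypertrophic to other Col2a1 cells in wild type (horizontal) against the same ratio in Bmx-CreER Wls (vertical) for the tested genes of 6 lists, with counts under 3 set to 3, Col10a1 left out and 2-fold lines dashed. Cell cycle genes gather at the lower left with the reserve and superficial markers, and Alpl, Ihh, Pth1r and Spp1 lie at the upper right; the 2 axes rest on separate libraries.

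Much of the cartilage matrix programme was still present in the gated cells. Both cell sets were required to hold Col2a1, so this describes only cells that kept it, and Col10a1 cells low in Col2a1 were left out. Of 24 tested genes, 12 stayed within 2-fold in at least 1 library, 4 were at least 2-fold higher (Comp, Hapln1, Chad and the proteoglycan gene Snorc, listed as 3110079O15Rik) and 8 at least 2-fold lower. All tested genes had 4.25% higher and 12.9% lower. Acan, the large proteoglycan of cartilage, was at 5753 and 6032 against 5422 and 5233 CPM, and Col9a1 at 13159.9 and 11826 against 12213 and 9987. Chad (chondroadherin) was at 2909 and 2803 against 573 and 497 CPM, and Comp, an oligomeric matrix protein, at 6199.7 and 7729 against 1768 and 2104. With other Col2a1 cells limited to those with at least 200 Col2a1 UMIs per 10000, a choice made after the data were seen, the wild-type ratio of Hapln1 was 1.82 in place of 2.01. The 8 lower genes included markers of reserve and joint-surface cartilage. Prg4 (lubricin) was at 55.2 and 39.2 against 1548 and 1598 CPM, and Ucma at 67.4 and 40.5 against 1213 and 951. Of all 9 reserve and superficial markers tested, 7 were at least 2-fold lower and 0 higher. The columnar list was mixed, with Comp and Chad higher, Epyc lower and 5 of 8 within 2-fold. Without the Col1a1-rich cells described further on, the Bmx-CreER Wls ratio of Epyc was 0.527 in place of 0.449, which ends its call.

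Of 19 tested mineralization genes, 8 were at least 2-fold higher and 2 lower in both libraries, against 4.25% and 12.9% of all tested genes. The lower calls do not set this list apart. The wild-type call of Ibsp, among the 8, depended on the cells chosen, as given further on. Alpl, the phosphatase that frees phosphate for mineral, was at 796 and 686 CPM against 28.6 and 29.7, 27.9-fold (24.1 to 32.4) and 23.1-fold (20.6 to 26.1) higher, and close to its level in osteoblasts (668 and 627). It was detected in 81.1% and 86.6% of hypertrophic chondrocytes and 1.18% and 1.20% of Ptprc-positive cells. Phex, a membrane peptidase of phosphate balance, was at 130.4 and 106 against 11.9 and 7.03 CPM. Slc8a3, a sodium and calcium exchanger, was 3.15- and 3.72-fold higher. The late bone matrix genes were present in a minority of cells or at low level: Bglap (osteocalcin), whose near-identical copies make its count uncertain, had 8 and 14 UMIs and Dmp1, a mineral-binding phosphoprotein, had 12 and 7. When the top 5% of Scrublet doublet scores were left out, the wild-type Dmp1 ratio was 0.828 in place of 2.43. Phospho1, a matrix vesicle phosphatase, had 4 and 0 UMIs. The mineralization inhibitors Enpp1 (0.518 and 0.421) and Mgp (0.527 and 0.632) were lower on the ratio scale without passing 2-fold in both libraries.

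Of 20 tested matrix-degrading and vessel-attracting genes, 6 were at least 2-fold higher and 5 lower in both libraries, against 4.25% and 12.9% of all tested genes. Some of the 6 were found in most cells, such as the secreted matrix protein gene Cyr61 in 84.0% and 79.2% of hypertrophic chondrocytes. Mmp13, collagenase 3 (chr9:7272514-7283331, plus strand), was at 198 and 362 CPM against 52.7 and 51.3, but only 6.60% and 5.09% of hypertrophic chondrocytes had a UMI of it, and the 5 highest cells held 76.8% and 89.4% of its UMIs. Most of those UMIs lay in the trail of low Col2a1. With hypertrophic chondrocytes divided at 400 Col2a1 UMIs per 10000, a value chosen after the data were seen, 16 wild-type cells and 11 Bmx-CreER Wls cells fell below it, and they held 75.7% and 97.5% of the Mmp13 UMIs of all hypertrophic chondrocytes. The low-Col2a1 cells reached 2846 and 8572 CPM of Mmp13, the others 50.7 and 9.53.

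The same low-Col2a1 cells were high in Spp1 (osteopontin), at 9681 and 16034 CPM against 662 and 223 in the other hypertrophic chondrocytes. Vegfa, the growth factor that draws vessels into cartilage, was at 789.7 and 729 against 66.6 and 69.4 CPM. The gap junction gene Gja1 was at 1062 and 1600.2 against 75.7 and 26.5, and Cdkn1a at 1279.9 and 1473 against 409 and 441. Several hypertrophic genes were lower there, Ihh at 517 and 174 against 990.3 and 1006 CPM and Panx3 at 980.3 and 903 against 2798 and 3037. Laptm5, a gene of blood cells, moved with them, at 191 and 127 against 9.08 and 4.08 CPM, and the low-Col2a1 cells held 53.8% and 57.1% of its 26 and 14 UMIs, while the osteoclast protease gene Ctsk had 0 UMIs in them. The part of blood-cell RNA in these levels was not tested. The low-Col2a1 cells had median depths of 3092 and 5919 UMIs, and 4 and 8 of them were in the top 5% of Scrublet scores of the kept cells, against 8 and 12 of the other 196 and 205. When that 5% was left out, the ratio of Mmp13 in Bmx-CreER Wls hypertrophic chondrocytes to other Col2a1 cells was 1.93 in place of 7.06, and the ratio of Bmx-CreER Wls to wild type was 0.493 in place of 1.83, so the direction between the libraries rested on those cells.

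The gate leaves out cells that passed the Col10a1 threshold with less than 20 Col2a1 UMIs per 10000, of which there were 8 in wild type and 5 in Bmx-CreER Wls. Of the 8 wild-type cells, 7 had between 7 and 169 Mmp13 UMIs and 1 had none, and the pooled levels of the 8 were 13455 CPM of Mmp13 and 13214 of Spp1. They had 0 Ihh UMIs and 4 Sox9 UMIs in all, and 1 Col1a1 UMI. Mmp9 had between 3 and 11 UMIs in 4 of the 8, and 1 of these 4 also held 1 UMI of Spi1, 3 of Csf1r, 6 of Laptm5 and 4 of Ctsk. In Bmx-CreER Wls the 5 cells were uneven, with 109, 0, 0, 7 and 0 Mmp13 UMIs, and 1 of them held 12 UMIs of Spi1, 7 of Csf1r and 40 of Mmp9, genes of the macrophage and osteoclast lineage. Another of the 5 had 46 Col1a1 UMIs of 626. Cell numbers this small allow no statement beyond these counts. In the gated cells Mmp9, the gelatinase of osteoclasts, had 2 UMIs in each library.

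Within the gate, gene levels differed along the Col10a1 level, which is a description because Col10a1 chose the cells. Cells were divided at 50, 100 and 200 Col10a1 UMIs per 10000, which gave 18, 25, 26 and 143 wild-type and 28, 22, 33 and 133 Bmx-CreER Wls cells. Ihh showed no steady slope, with 836, 981, 1052 and 963 CPM from the lowest to the highest bin in wild type and 849.5, 1014, 724 and 1042 in Bmx-CreER Wls. Pth1r stood at 1004, 1167, 1399 and 1853 CPM in wild type and 1069, 1358, 1224 and 1706 in Bmx-CreER Wls, so its highest level was in the highest bin of both libraries. Alpl stood at 335, 325, 570.1 and 961 CPM in wild type and 529, 476, 514 and 788 in Bmx-CreER Wls, again highest in the top bin. The Wnt antagonist Frzb stood at 185, 173, 212 and 499 CPM in wild type and at 182, 275, 190.5 and 456 in Bmx-CreER Wls, a difference mainly between the top bin and the 3 below it.

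Other genes ran against Col10a1. Sox9 was at 2606, 2500.1, 2116 and 1214 CPM from the lowest to the highest bin in wild type and 2105, 2016, 2071 and 1205 in Bmx-CreER Wls. Igf2 stood at 10874, 10553, 9650.4 and 6704 CPM in wild type and at 12278, 10728, 10395 and 7609 in Bmx-CreER Wls. Runx3, a Runx2 relative that acts with it in chondrocyte maturation, stood at 194, 166, 129 and 97.2 in wild type and at 272, 219, 190.5 and 91.3 in Bmx-CreER Wls. Prelp, a leucine-rich matrix proteoglycan, was at 643 CPM in the lowest and 139.6 in the highest bin in wild type, and at 817 and 257 in Bmx-CreER Wls. With Col10a1 and Col2a1 left out of the totals, Sox9 was at 2828 and 1430.4 CPM in the lowest and highest bin in wild type and 2272 and 1404 in Bmx-CreER Wls. On the same totals Igf2 was at 11798 and 7897 in wild type and 13253 and 8868 in Bmx-CreER Wls, Runx3 at 210.2 and 115 and at 294 and 106, and Prelp at 697 and 164 and at 882 and 300.0. Median depths per bin ran from 5958 to 6739 UMIs in wild type and from 5978 to 7247 in Bmx-CreER Wls. The Col1a1-rich cells described further on, 9 in wild type and 42 in Bmx-CreER Wls, had low median Col10a1 levels of 115 and 71.6. Their part in the differences between bins was not tested.

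**Figure D4:**
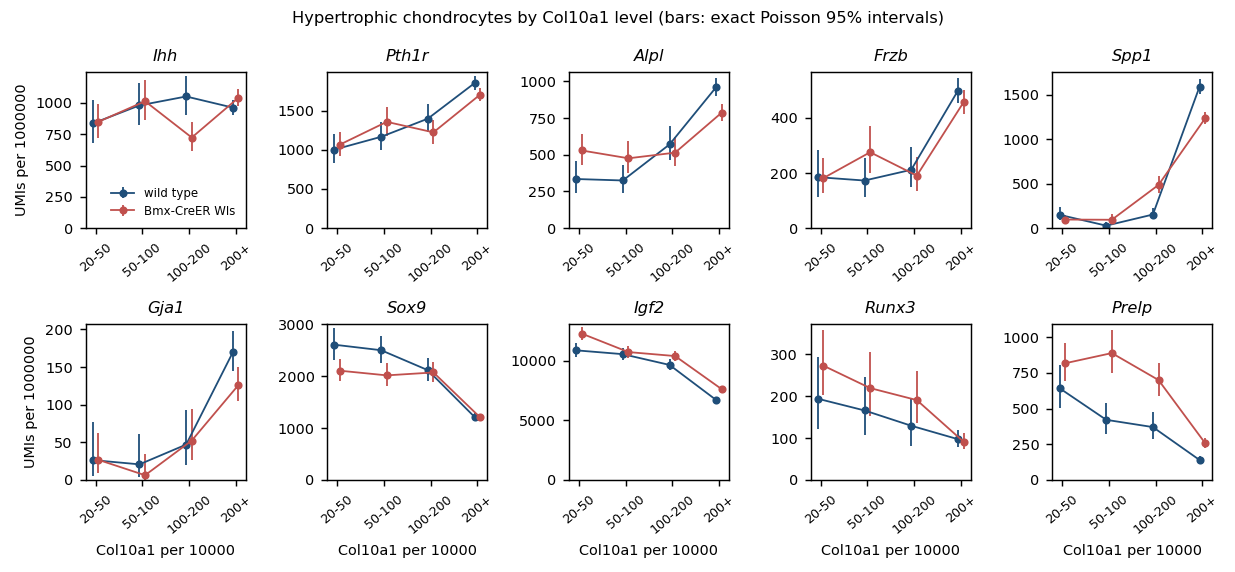
Level of 10 genes in hypertrophic chondrocytes grouped by their Col10a1 UMIs per 10000 (horizontal), as UMIs per 1000000 UMIs of the bin with exact Poisson 95% intervals, in wild type (blue) and Bmx-CreER Wls (red). Ihh showed no steady slope, Pth1r, Alpl, Frzb, Spp1 and Gja1 were highest in the top bin, and Sox9, Igf2, Runx3 and Prelp were lowest there, in both libraries. The 16 wild-type and 11 Bmx-CreER Wls cells under 400 Col2a1 UMIs per 10000 had median Col10a1 levels of 485 and 599. They held 44.8% and 75.5% of the Spp1 UMIs and 43.8% and 72.1% of the Gja1 UMIs. The levels of these 2 genes in the top bin are therefore not spread evenly over its cells.

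For the remaining groups the counts stand beside the 4.25% of all tested genes called higher and the 12.9% called lower. Of 28 glycolysis and hypoxia genes, 0 were at least 2-fold higher and 4 at least 2-fold lower in both libraries, among them Car9 (0 and 4 UMIs, against 45.9 and 99.5 CPM in the other Col2a1 cells) and Egln3, both targets of the hypoxia response. Of 24 secretory pathway and endoplasmic reticulum stress genes, only Atf3 was higher (397 and 275 against 51.9 and 38.6 CPM) and only Creb3l2 lower, with list medians of -0.10 and -0.13 on the log2 scale. Of 14 cell death genes 2 were higher, the pro-apoptotic Bbc3 (24.4 and 19.6 against 7.60 and 5.12 CPM) and Bcl2l11. The 5 highest cells held 80.0% and 78.1% of the Bcl2l11 UMIs, and without the 5% highest Scrublet scores its Bmx-CreER Wls ratio was 0.898 in place of 2.65. Of 12 genes of ion and water transport and cell size, Panx3 and the amino acid transporter Slc38a2 were higher and Aqp1 and Atp1b1 lower.

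Markers of blood, endothelial, mural and tendon cells were at low levels, and those of fibroblastic cells and osteoblasts at higher ones. The 7 erythroid markers had 0 UMIs in both libraries. The 12 blood and osteoclast markers summed to 54.5 and 44.4 CPM, against 12490 and 12242 in Ptprc-positive cells, with 3 and 4 of the 12 at 0. The 8 endothelial markers summed to 12.9 and 6.53 CPM, with 3 and 4 at 0, and the 7 mural and tendon markers to 14.3 and 11.7, with 4 and 3 at 0. The 8 fibroblastic markers reached 1198 and 1559 CPM with 3 and 2 at 0, most of it Col3a1, against 2808 and 3464 in the other Col2a1 cells. The 14 osteoblast markers summed to 3158 and 9940.0 CPM, against 16049 and 14736 in the other Col2a1 cells and 210263 and 200970 in osteoblasts. Among them 4 of 11 tested genes were at least 2-fold higher than in the other Col2a1 cells, namely Sp7, Ifitm5, Bglap and Dmp1, and 4 were lower. Ibsp, bone sialoprotein, was at 1246 and 1124 CPM, above the other Col2a1 cells (584 and 385) and far below osteoblasts (33077 and 27923). In wild type the 9 Col1a1-rich cells described further on held it at 8330 CPM against 940 in the rest. Without them its wild-type ratio was 1.61 in place of 2.14, while against Col2a1-rich other cells it was 10.7.

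The libraries of the 2 genotypes differed little in the genes that define these cells. Of 5951 genes that reached 50 UMIs in these cells of both libraries together, 88 were at least 2-fold higher (1.48%) and 39 at least 2-fold lower (0.655%) in Bmx-CreER Wls than in wild-type hypertrophic chondrocytes, and the median log2 ratio was 0.0025. The 5 markers, 15 mineralization genes, 21 transcription factors and 24 cartilage matrix genes that reached this count held none past 2-fold. Calls were rare over all genes, so 0 in lists this short does not set them apart. Col10a1 and Col2a1 among them also chose the cells. The ratio of Bmx-CreER Wls to wild type was 1.01 (95% interval 0.935 to 1.08) for Ihh, 1.09 (1.04 to 1.14) for Panx3, 0.914 (0.853 to 0.980) for Smpd3 and 0.921 (0.869 to 0.976) for Pth1r. It was 0.968 for Runx2, 0.966 for Sox9 and 0.861 for Alpl. Cdkn1c was at 0.973 and Col10a1 itself at 0.881. In the other Col2a1 cells the ratio was 0.726 for Ihh, 0.594 for Panx3, 0.579 for Smpd3, 0.600 for Pth1r and 0.572 for Runx2, against 1.04 for Alpl, 0.955 for Sox9 and 0.975 for Cdkn1c. Whether these ratios differ between the 2 cell sets was not tested.

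Collagen I genes were among the largest differences between the libraries. Among 3813 genes with at least 100 UMIs in these cells, the 5 highest ratios were those of Fbln2, Nrn1, Lgals1, Col1a1 and Rps3a1. Col1a1, the main chain of bone collagen I, was at 1219.9 CPM in wild-type and 4699 in Bmx-CreER Wls hypertrophic chondrocytes, a ratio of 3.85 (3.65 to 4.06), and Col1a2 at 1498 and 4619, a ratio of 3.08. Fbln2 (fibulin 2) was at 22.2 and 101 CPM and Lgals1 (galectin 1) at 18.6 and 73.1. Of the 6 osteoblast markers with enough UMIs, 4 were at least 2-fold higher in Bmx-CreER Wls: Col1a1, Col1a2, Ifitm5 (2.28) and Cdh11 (2.95). The same ratio in the other Col2a1 cells was 0.848 for Col1a1, 0.989 for Col1a2 and 1.51 for Fbln2, so those cells did not show the difference at that size.

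Most Col1a1 UMIs lay in a minority of the cells, which was larger in Bmx-CreER Wls. The higher level in Bmx-CreER Wls was present in the remaining cells but not within that minority. At least 100 Col1a1 UMIs per 10000, a limit chosen after the data were seen, were found in 9 of 212 wild-type cells (4.25%) and 42 of 216 Bmx-CreER Wls cells (19.4%), which held 81.6% and 76.3% of the Col1a1 UMIs. These cells stood low in Col10a1, with medians of 115 and 71.6 UMIs per 10000 against 507 and 445 in the rest, but held Ihh at 795 and 754 CPM against 973 and 1023. Their depth was ordinary (medians of 7021 and 7006 UMIs), and 1 of 9 and 5 of 42 were among the 5% highest Scrublet scores, against 12 and 20 of all hypertrophic chondrocytes. Within the Col1a1-rich cells Col1a1 was at 23987 CPM in wild type and 18894 in Bmx-CreER Wls, and Col1a2 at 17403 and 14847. In the remaining cells Col1a1 was at 235 and 1377 CPM, a ratio of 5.86. Ptprc-positive cells, which should lack it, held 298 and 917 CPM of Col1a1, so the level there also differed between the libraries in the same direction, and its part in the difference was not tested. No single cell reached 1000 Col1a1 UMIs per 10000.

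Glycolysis genes had a median log2 ratio between the libraries of 0.35 over 21 genes, and 1 of the 21, the lactate exporter Slc16a3 (2.01), was at least 2-fold higher in Bmx-CreER Wls, by a margin so small that 6 of the alternatives tried put it between 1.93 and 2.0. Aldoa (1.38, 1.28 to 1.5) and Ldha (1.41, 1.29 to 1.55) were above 1. On the other side, the 5 lowest ratios among the same 3813 genes were those of Nfkbiz, Ide, Clec3a, Chac1 and Rps3a3. Nfkbiz, a nuclear regulator of inflammatory genes, was at 85.3 and 32.6 CPM, a ratio of 0.383 (0.269 to 0.537). Of the signals, Bmp6 (0.405) and Gdf5 (0.488) and, of the proteases, Adamts1 (0.489, 0.412 to 0.579) were at least 2-fold lower. Gdf5 no longer passed 2-fold at a Col10a1 threshold of 10 (0.539), with cells weighted equally (0.583) or without the Col1a1-rich cells (0.50015), nor Adamts1 at that threshold (0.5001) or without those cells (0.548). Bmp2 (0.548), Ctgf (0.668), Cyr61 (0.661) and Atf3 (0.694) were lower without reaching 2-fold. Rps3a1 (3.75) and Rps3a3 (0.449) are near-identical copies between which reads can be split, so their opposite ratios are uncertain.

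**Figure D5:**
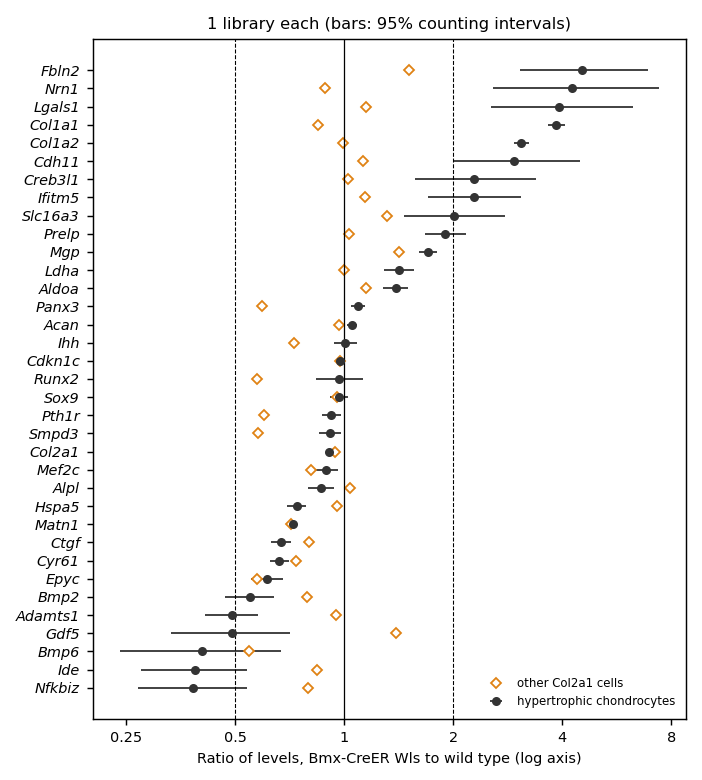
Ratio of Bmx-CreER Wls to wild type on a log axis for 35 genes in hypertrophic chondrocytes (black, with 95% counting intervals) and in the other Col2a1 cells of the same libraries (open diamonds), with 2-fold lines dashed. Col1a1, Col1a2, Fbln2, Nrn1 and Lgals1 stand above 3 in hypertrophic chondrocytes alone, and Ihh, Panx3 and Pth1r lie near 1.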

How the data were processed

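Single-cell RNA-sequencing of 2 lineage-depleted fetal bone marrow suspensions was analysed. The authors deposited raw UMI counts per gene and cell, which per the submitters' processing notes were made with UMI-tools 1.0.1, STAR 2.7.1a, featureCounts 1.6.4 and mm10, and every row named a gene. Only cells with 201 to 4999 genes and less than 30% of their UMIs from mitochondrial genes entered. Doublets were scored with Scrublet (scanpy 1.11.5) and kept. UMIs were summed per cell set and library with Python 3.11.15, numpy 2.4.6 and scipy 1.17.1 and given as CPM, with exact Poisson, Clopper-Pearson or conditional binomial 95% intervals. With 1 library per genotype no test was made. A gene was called at a ratio of at least 2 among genes with at least 50 UMIs, in both libraries for comparisons of cell sets, and counts under 3 were set to 3. On simulated counts the intervals covered 96%, 96% and 97.5% of 200 genes changed 2-fold, for hypertrophic against other Col2a1 cells in wild type (9645 genes) and Bmx-CreER Wls (10677) and between libraries (5951). The simulated counts were Poisson, which the intervals assume, so coverage near 95% was built in. RNA clumped in few cells, such as that of Mmp13, was not simulated, and its intervals can be too narrow. Genes were named from fixed lists and as the 10 highest and lowest between cell sets and the 5 between libraries. Members and lists were chosen with earlier results of these data known. Fgfbp2 is not analysed here. The study's own cell labels were not used here. edgeR 4.0.16 (R 4.3.3) gave TMM factors as an alternative. Gene positions are from the GENCODE annotation of GRCm38.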

Additional observations from a re-analysis of the deposited data

Results flagged for a closer look

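In 3 listed genes the ratio of hypertrophic to other Col2a1 cells lay above 1 in one library and below 1 in the other, with counting intervals that left out 1 in both. Anxa2, a calcium-dependent membrane-binding protein, had a ratio of 0.879 in wild type and 1.22 in Bmx-CreER Wls. Gja1, connexin 43, had 1.27 in wild type and 0.838 in Bmx-CreER Wls, and most of its UMIs in Bmx-CreER Wls lay in the 11 cells of low Col2a1. Hspa5, the main chaperone of the endoplasmic reticulum, had 1.11 and 0.858. With 1 library per genotype the difference between libraries was not tested, and all 3 stayed within 2-fold. Without the 5% highest Scrublet scores the Gja1 ratio was 0.393 in place of 0.838 in Bmx-CreER Wls, and its ratio between the libraries was 0.379 in place of 0.716.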

How the results depend on the processing

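No paired analysis was possible because each genotype had 1 library. The share of hypertrophic chondrocytes ranged from 3.5% to 4.06% in wild type and from 3.01% to 3.56% in Bmx-CreER Wls over all thresholds, filters and thinning tried. The count of genes at least 2-fold higher than in other Col2a1 cells was 491, and 321 with at least 200 UMIs required. Between libraries, 88 higher genes became 273 with at least 20 UMIs and 21 with at least 200, and 39 lower genes became 168 and 6, and 78 with cells weighted equally. Without the Col1a1-rich cells there were 62 higher and 35 lower genes. Of 3663 alternative values of 333 ratios, 3572 stayed on the main value's side of 1, and 42 of 2167 past 2-fold no longer passed it. Without the 5% highest Scrublet scores the ratio of Dmp1 reversed to 0.828 in wild type and that of Bcl2l11 to 0.898 in Bmx-CreER Wls. At a Col10a1 threshold of 10 the Prc1 ratio between libraries reversed to 1.43, and at a Col2a1 threshold of 10 the Bmx-CreER Wls Mmp9 ratio to 1.03, which takes in the cell with 40 Mmp9 UMIs. Ibsp in wild type (2.14) was at 1.97 with a Col10a1 threshold of 10 and 1.49 with a Col2a1 threshold of 10. It was at 1.61 without the Col1a1-rich cells. Bmp2 in Bmx-CreER Wls (2.13) was at 1.70 with cells weighted equally, and Adamts1 between libraries (0.489) at 0.548 without the Col1a1-rich cells. Against other Col2a1 cells with at least 200 Col2a1 UMIs per 10000, 75 ratios left the main value's counting interval and 147 did not. Wild-type and Bmx-CreER Wls ratios there were 10.7 and 17.7 for Ibsp, 62.8 and 25.8 for Spp1, and 16.6 and 13.2 for Mmp13. Phex was at 45.6 and 40.3 and Col1a1 at 0.319 and 1.02, while Hapln1 in wild type fell to 1.82. The causes were not tested. The Col2a1 thresholds for gene ratios, the comparison with Col2a1-rich cells, the bins above 500, and the splits at 100 Col1a1 and 400 Col2a1 were chosen after seeing the data. Depth limits genes under the floor of 2.15 and 1.96 CPM, and 1 library per genotype limits every comparison between genotypes.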

Other observations

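Within the highest Col10a1 level the cells were divided once more, at 500 Col10a1 UMIs per 10000, a limit chosen after the data were seen, which gave 40 and 103 wild-type and 47 and 86 Bmx-CreER Wls cells. Frzb, the secreted Wnt antagonist, was at 167 CPM between 200 and 500 and 639 at or above 500 in wild type, and at 160.1 and 627 in Bmx-CreER Wls. Alpl was at 563.7 and 1129 CPM in wild type and at 609.5 and 890 in Bmx-CreER Wls. Slc38a2, an amino acid transporter, was at 665 and 939 CPM in wild type and at 601 and 929 in Bmx-CreER Wls. Sox9 was at 1639 and 1035 CPM in wild type and at 1593 and 982 in Bmx-CreER Wls, while Ihh stood at 1040.3 and 930.4 in wild type and at 952 and 1093 in Bmx-CreER Wls. Foxa2 was lower above the limit in both libraries, at 97.4 and 69.2 CPM in wild type and 107 and 51.7 in Bmx-CreER Wls, from between 28 and 47 UMIs a bin. Bmp2 went opposite ways, at 247 and 430 CPM in wild type and 247 and 225 in Bmx-CreER Wls.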
